A study of Homo sapiens with 24 samples.

Results

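The 47 genes described here encode proteins of the kinetochore, the spindle assembly checkpoint, the chromosomal passenger complex and the mitotic spindle. They were chosen by name for these roles out of the 62754 genes of the count table, and with earlier results of these data known. All 47 passed the filter on low counts in both fractions. RNA was measured in RKO-dox-Cas9 cells, a human colon carcinoma line in which doxycycline switches on the Cas9 nuclease. A guide against ERH (sgERH) was compared with a guide against the AAVS1 safe-harbour site (sgAAVS1, the control), both after 5 days of doxycycline at 100 ng/mL, so that the controls carried Cas9 and a guide as well. In the last 4 h the cells received either DMSO or cycloheximide (CHX) at 25 µg/mL, and polyadenylated RNA of the nucleus and of the cytoplasm was sequenced. The 8 groups of guide, fraction and treatment held 3 libraries each, labelled as biological replicates, so p-values measure the spread between these libraries.

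The kinetochore is the protein assembly that links a centromere to spindle microtubules. Its inner layer (CENP proteins) sits on centromeric chromatin, its outer layer (the NDC80, MIS12 and KNL1 complexes) holds the microtubule, and the SKA complex strengthens that hold. Unattached kinetochores switch on the spindle checkpoint, whose proteins restrain CDC20 and so delay anaphase, while Aurora B in the chromosomal passenger complex releases wrong attachments. Most of these genes are transcribed late in the cell cycle. CHX blocks protein synthesis, and thereby also nonsense-mediated decay (NMD), which removes mRNAs that carry an early stop codon.

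The libraries held 27.8 to 79.5 M counts (1 M = 1e+06). The 47 genes together took 0.353 ± 0.0107% of the counts in control cytoplasm with DMSO and 0.235 ± 0.0036% in sgERH (mean ± SD, n = 3), 0.440 ± 0.0056% and 0.318 ± 0.0029% with CHX, 0.30 ± 0.0076% and 0.210 ± 0.0060% in the nucleus with DMSO, and 0.286 ± 0.0032% and 0.257 ± 0.0078% in the nucleus with CHX. ERH itself, the targeted gene, counted 137, 158 and 152 CPM in control cytoplasm with DMSO and 72.9, 86.9 and 59.4 CPM in sgERH (counts per 1e+06 after TMM scaling), a log2 fold change of -1.03 (SE 0.11, adjusted p = 1.12e-06). Its other log2 fold changes were -0.72 (SE 0.11, adjusted p = 6.15e-05) in cytoplasm with CHX, -0.48 (SE 0.16, adjusted p = 0.0267) in the nucleus with DMSO and -0.12 (SE 0.16, adjusted p = 0.590) in the nucleus with CHX. In the last of these the targeted gene did not differ beyond the replicate spread, although a Cas9 cut changes a gene and need not lower its RNA. On the scale of counts per 1e+06 of all counts, without TMM scaling, 4 of 10 colon epithelial markers reached 1 CPM (EPCAM, KRT8, KRT18 and CDX2), and CDH1, KRT20, VIL1, CDH17 and LGR5 were at or near 0. Fibroblast markers summed to 0.0126 to 6.16 CPM over the libraries, CD3E was at 0, and HLA-DRA was at 0 in all but 1 library (0.0334 CPM). The leukocyte list summed to 55.7 to 395 CPM, most of it CD68, with ITGAM at 12.5 to 17.6 CPM in the nucleus with CHX and LYZ at 15.9 CPM in 1 control library there. The summed level was higher in every sgERH group than in its control group (272 to 310 against 373 to 395 CPM in cytoplasm with DMSO). Mitochondrial genes also took more of the counts in each sgERH group than in its control, at 3.89 ± 0.254% against 6.19 ± 0.601% in cytoplasm with DMSO, 3.15 ± 0.110% against 4.97 ± 0.309% with CHX, 0.515 ± 0.0724% against 0.852 ± 0.0504% in the nucleus with DMSO and 0.441 ± 0.0515% against 0.925 ± 0.160% with CHX. The part of CD68 and of the mitochondrial share in the results was not tested. Of the members, 15 share exon bases with another gene, 5 of them on the same strand, and the use of strand in counting is not stated in the sources used here.

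In sgERH cells most of these genes were lower in both fractions, least so in the nucleus with CHX. Levels are given as counts per 1e+06 counts after TMM scaling (CPM), and a gene was called when the Benjamini-Hochberg adjusted p of edgeR's quasi-likelihood test was at most 0.05 and the level had changed at least 2-fold (1.0 or more on the log2 scale, in either direction). In cytoplasm with DMSO all 47 estimates were below 0, 44 passed the adjusted p and 12 were called lower, against 28.7% and 2.16% of all 16130 genes tested. The called count was 5 without control replicate 1 and 7 without control replicate 2, since 8 of the 12 had log2 fold changes between -1.01 and -1.04, while DLGAP5, BUB1B, TTK and SPC24 stayed called in every fit tried. None of the 47 was called higher, against 9.3% of all genes. The median log2 fold change of the 47 was -0.80, and that of all genes 0.04. In 43 members the 3 sgERH libraries all lay below the 3 control libraries, as they did for 30.4% of all genes. The 3 members that did not pass the adjusted p were CENPL, CENPQ and MIS12, with log2 fold changes of -0.13, -0.20 and -0.04. Because the RNA was bulk RNA, fewer cells in mitosis and less RNA per cell cannot be told apart.

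With CHX the cytoplasmic decrease covered almost the same number of members and was smaller in its median. Of the 47 genes, 45 passed the adjusted p in the lower direction, against 24.7% of all genes, and 5 were called lower, against 1.43%. Only 3 were called without sgERH replicate 3, and 3 with an offset for transcript length, under which CENPU and KNTC1 were each at -0.96. The median was -0.55 (all genes 0.02), and in 46 members the groups did not overlap, with sgERH below, against 29.1% of all genes. In the nucleus with DMSO 35 members passed the adjusted p in the lower direction (18.2% of 17330 genes) and 8 were called (1.73%), with a median of -0.61 (all genes 0.03). All sgERH libraries lay below all control libraries in 39 members, against 26% of all genes. In the nucleus with CHX 28 members passed the adjusted p in the lower direction (23.1%) and 1 in the higher direction (21.7%), 4 were called lower (3.68%), and the median was -0.39 (all genes 0.01). The groups did not overlap in 26 members with sgERH below (27.1% of all genes) and in 3 with sgERH above (24.8%). All 47 members passed the adjusted p in the lower direction in at least 1 of the 4 comparisons and 24 in all 4, against 50.4% and 5.94% of the 15360 genes tested in all 4. A call was made for 18 members in at least 1 comparison, for 4 in both fractions with DMSO (BUB1B, DLGAP5, NUF2 and SKA3) and for 2 in all 4 (DLGAP5 and SKA3). Of those 15360 genes, 21.6% were called in at least 1, 3.2% in both fractions with DMSO and 0.938% in all 4, in either direction.

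**Figure D1:**
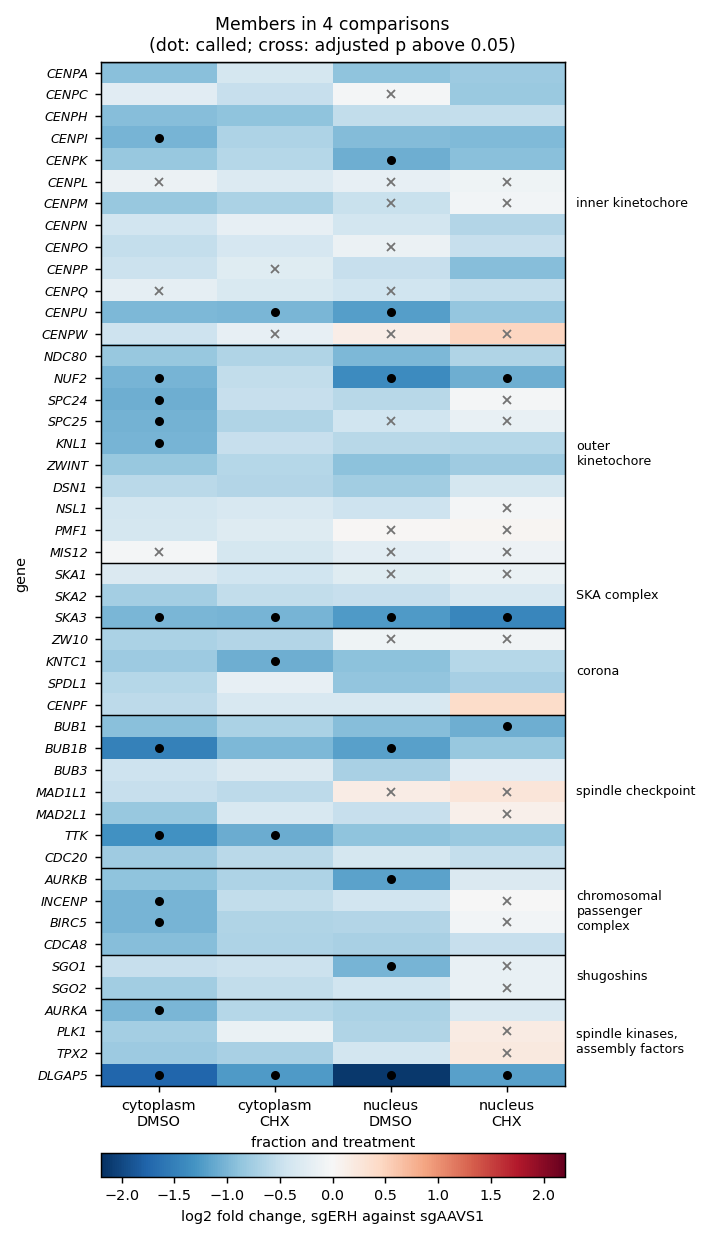
Log2 fold change of sgERH against sgAAVS1 for the 47 genes (rows, grouped by role) in the 4 settings of fraction and treatment (columns). Blue is lower and red higher in sgERH, dots mark called genes and crosses an adjusted p above 0.05. DLGAP5 and SKA3 carry a dot in all 4 columns, and CENPF in the nucleus with CHX (0.41) is the only red cell without a cross.

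Among the 13 inner kinetochore genes 11 fell in cytoplasm with DMSO, with a median of -0.53. CENPI, a subunit of the CENP-H/I/K/M group, counted 24, 23.6 and 19.4 CPM in control cytoplasm and 10.8, 12.1 and 10.3 CPM in sgERH, a log2 fold change of -1.02 (SE 0.10, adjusted p = 2.86e-07). It was the inner kinetochore gene called there. CENPU, which recruits PLK1 to kinetochores, was called in cytoplasm with CHX, where it counted 104, 102 and 112 CPM in controls and 51.4, 55.5 and 51.8 CPM in sgERH (log2 fold change -1.0, SE 0.08, adjusted p = 3.75e-08). It was also called in the nucleus with DMSO, at 34.2, 35.6 and 34.8 CPM against 14.9, 15.4 and 14.9 CPM (-1.21, SE 0.12, adjusted p = 5.16e-07). CENPU shares 14.9% of its exon bases with PRIMPOL on the opposite strand. CENPK, a partner of CENPI, was called in the nucleus with DMSO, where 65.9, 62.3 and 67.3 CPM stood against 28.5, 31.5 and 32.3 CPM (-1.08, SE 0.13, adjusted p = 7.47e-06). For all 3 of these genes the groups did not overlap in the comparisons named. CENPI was not called without control replicates 1 or 2 or sgERH replicate 3 (-0.97 to -0.94), nor CENPU in cytoplasm with CHX without control replicate 3 or sgERH replicates 1 or 3 (-0.99 to -0.96).

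CENPC, the inner kinetochore scaffold and the most abundant member of this layer over all libraries, followed another course. In control cytoplasm with DMSO it counted 25.8, 25.0 and 22.8 CPM, and in sgERH 19.6, 23.1 and 19.2 CPM, so that the groups overlapped (log2 fold change -0.25, SE 0.07, adjusted p = 0.00612). Nuclear counts with DMSO were 59.7, 58.9 and 58.1 CPM against 53.9, 57.5 and 59.4 CPM (-0.05, SE 0.07, adjusted p = 0.651). With CHX the nuclear groups separated, at 164, 156 and 170 CPM against 89.8, 88.4 and 100.3 CPM (-0.82, SE 0.07, adjusted p = 1.50e-07). The difference between these nuclear effects is given with the CHX results.

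All but 1 of the 10 outer kinetochore genes fell in cytoplasm with DMSO, with a median of -0.83, and 4 of them were called. NUF2, the partner of NDC80 at the microtubule-binding end, counted 62.8, 58.6 and 59.0 CPM in controls and 28.9, 29.5 and 30.6 CPM in sgERH (log2 fold change -1.02, SE 0.07, adjusted p = 2.59e-09). SPC24, which with SPC25 anchors that complex to the inner kinetochore, counted 20.9, 20.7 and 21.9 CPM against 9.53, 11.1 and 9.48 CPM (-1.08, SE 0.09, adjusted p = 6.59e-08). SPC25 counted 37.4, 38.3 and 34.6 CPM against 17.8, 19.8 and 16.1 CPM (-1.04, SE 0.08, adjusted p = 3.45e-08). The NDC80 complex has these genes and NDC80 itself as its subunits, and NDC80 fell by 0.83 on the log2 scale (SE 0.08, adjusted p = 2.29e-07). KNL1, the scaffold that receives the checkpoint proteins BUB1 and BUB1B, counted 122, 125 and 107 CPM against 58.3, 56.5 and 58.5 CPM (-1.03, SE 0.07, adjusted p = 4.20e-09). In each of the 4 called genes every sgERH library was lower than every control library. Without control replicate 1 NUF2 and KNL1 were at -0.96 and -0.98 and not called, as KNL1 and SPC25 were not without control replicate 2 (-0.96 and -0.99) and SPC25 without sgERH replicate 3 (-0.97).

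In the nucleus the outer kinetochore gene called was NUF2, with both treatments. With DMSO it counted 79.1, 74.4 and 69.1 CPM in controls and 28.4, 26.3 and 31.0 CPM in sgERH (log2 fold change -1.38, SE 0.13, adjusted p = 2.80e-07). With CHX it counted 71.8, 74.6 and 80.3 CPM against 30.1, 45.4 and 31.6 CPM (-1.08, SE 0.12, adjusted p = 2.15e-06), with 1 sgERH library above the others, and was not called there without sgERH replicates 1 or 3. SPC25 was far less abundant in the nucleus, at 6.78, 7.13 and 4.01 CPM against 5.22, 4.58 and 3.44 CPM with DMSO, and its groups overlapped (-0.44, SE 0.24, adjusted p = 0.167). PMF1 and MIS12, both subunits of the MIS12 complex, had nuclear log2 fold changes with DMSO of 0.02 (adjusted p = 0.928) and -0.24 (adjusted p = 0.0504).

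SKA3, a subunit of the SKA complex and its most abundant member here, was called in all 4 comparisons. In control cytoplasm with DMSO it counted 90.8, 87.2 and 83.7 CPM and in sgERH 42.5, 42.5 and 45.0 CPM (log2 fold change -1.01, SE 0.06, adjusted p = 7.09e-10). With CHX 108, 109 and 108 CPM stood against 53.6, 57.5 and 49.6 CPM (-1.02, SE 0.06, adjusted p = 1.34e-09). The control libraries of each setting lay close together and well above all sgERH libraries. In cytoplasm the call with DMSO was lost without control replicates 1 or 2 or sgERH replicates 1 or 2, and with RLE size factors or DESeq2, and that with CHX without sgERH replicate 3. In the nucleus it counted 41.7, 41.6 and 43.0 CPM against 17.7, 18 and 17.9 CPM with DMSO (-1.24, SE 0.09, adjusted p = 2.29e-08). With CHX the nuclear values were 106, 106 and 107 CPM against 36.1, 45.5 and 36.2 CPM (-1.44, SE 0.09, adjusted p = 3.35e-09). Its partners SKA1 and SKA2 fell in cytoplasm with DMSO by 0.31 (SE 0.08, adjusted p = 0.00242) and 0.75 (SE 0.06, adjusted p = 2.49e-08) on the log2 scale and were not called in any of the 4 comparisons. In the estimated split of SKA3 counts over transcripts, the transcript SKA3-201, annotated as an NMD target, took 30.1 ± 6.38% in control cytoplasm with DMSO and 43.6 ± 3.01% in sgERH (mean ± SD, n = 3), a description with no test.

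The corona is the fibrous outermost layer that forms on unattached kinetochores, and all 4 of its genes fell in cytoplasm with both treatments. KNTC1, a subunit with ZW10 of the complex that brings dynein to kinetochores, was called in cytoplasm with CHX, at 83.3, 85.9 and 85.5 CPM in controls and 40.8, 34.1 and 46.4 CPM in sgERH (log2 fold change -1.07, SE 0.09, adjusted p = 4.42e-08), a call lost without sgERH replicate 2 (-0.96). With DMSO it counted 29.7, 29.9 and 29.9 CPM against 17.7, 15.6 and 18.2 CPM (-0.80, SE 0.09, adjusted p = 1.36e-06). CENPF, a large coiled-coil protein that binds microtubules and the most abundant corona gene here, went both ways. It counted 327, 315 and 296 CPM in control cytoplasm with DMSO and 203, 192 and 239 CPM in sgERH (-0.57, SE 0.08, adjusted p = 1.02e-05). Its nuclear counts with DMSO were 614, 534 and 507 CPM against 461, 441 and 400 CPM (-0.35, SE 0.08, adjusted p = 0.00289). With CHX the nuclear order was turned, with 262, 237 and 262 CPM in controls and 356, 335 and 319 CPM in sgERH (0.41, SE 0.08, adjusted p = 5.47e-04). It was the member that passed the adjusted p in the higher direction in a comparison of sgERH with sgAAVS1.

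All 7 checkpoint genes fell in cytoplasm with both treatments, with a median of -0.83 with DMSO and -0.59 with CHX. BUB1B, which encodes BubR1, the checkpoint protein that binds CDC20, counted 149, 143 and 128 CPM in control cytoplasm with DMSO and 50.1, 49.8 and 50.3 CPM in sgERH (log2 fold change -1.48, SE 0.06, adjusted p = 1.25e-11). Nuclear counts with DMSO were 145, 141 and 147 CPM against 68.6, 59.2 and 61.2 CPM (-1.19, SE 0.07, adjusted p = 3.60e-09). Control and sgERH libraries were far apart in both fractions, although with an offset for transcript length the nuclear log2 fold change was -0.86 and not called. BUB1B shares 5.4% of its exon bases with PAK6 on the same strand. TTK, the kinase MPS1 that starts checkpoint signalling at KNL1, was called in cytoplasm with both treatments. It counted 30.9, 37.5 and 27.4 CPM against 12.4, 12.9 and 12.7 CPM with DMSO (-1.34, SE 0.09, adjusted p = 7.08e-09) and 60.3, 56.1 and 57.0 CPM against 28.8, 26.9 and 25.1 CPM with CHX (-1.10, SE 0.09, adjusted p = 5.80e-08). BUB1, a kinase that marks centromeric chromatin and recruits BUB1B, was called in the nucleus with CHX, at 125, 131 and 133 CPM against 59.5, 57.3 and 67.1 CPM (-1.08, SE 0.08, adjusted p = 2.25e-08).

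BUB3, the adaptor that brings BUB1 and BUB1B to KNL1 and the most abundant checkpoint gene, changed less. It counted 410, 425 and 406 CPM in control cytoplasm with DMSO and 294, 311 and 302 CPM in sgERH (log2 fold change -0.45, SE 0.05, adjusted p = 7.83e-07). Its nuclear counts with DMSO were 286, 284 and 288 CPM against 171, 171 and 180 CPM (-0.72, SE 0.06, adjusted p = 2.61e-07). The groups did not overlap in either fraction. On the scale of TPM, which allows for transcript length, BUB3 had the highest level of the 47 genes in control cytoplasm with DMSO (231) and CENPP the lowest (1.6). CENPP shares 39.9% of its exon bases with IPPK on the opposite strand. MAD1L1, the partner of MAD2L1, had nuclear log2 fold changes of 0.16 with DMSO (adjusted p = 0.302) and 0.27 with CHX (adjusted p = 0.0655), after a cytoplasmic decrease of -0.50 with DMSO (SE 0.08, adjusted p = 4.85e-05). MAD1L1 shares 43.2% of its exon bases with a gene without a symbol on the same strand, whose mean count was 31.2 against 1326.5 for MAD1L1.

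The 4 genes of the chromosomal passenger complex fell together in cytoplasm with DMSO, with log2 fold changes from -1.03 to -0.88. INCENP, the scaffold of the complex, counted 111, 99.5 and 97.8 CPM in controls and 50.9, 47 and 53.8 CPM in sgERH (-1.02, SE 0.07, adjusted p = 2.43e-09). BIRC5, or survivin, which carries the complex to centromeres, counted 129, 128 and 122 CPM against 64.2, 63.1 and 57.8 CPM (-1.03, SE 0.06, adjusted p = 8.91e-10). Both were called, with every sgERH library below every control library, and both fell short of the call without control replicate 1, as INCENP did without sgERH replicate 2 and BIRC5 without sgERH replicate 3. AURKB, the kinase of the complex, was called in the nucleus with DMSO, at 95.5, 96.1 and 102 CPM against 42.1, 43.5 and 44 CPM (-1.18, SE 0.08, adjusted p = 1.74e-08). With CHX 2 of the 4 genes passed the adjusted p in the nucleus, and INCENP was at -0.01 (SE 0.09, adjusted p = 0.954), with 84.3, 85.1 and 80.2 CPM against 94.9, 75.9 and 77.5 CPM.

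The shugoshins protect centromeric cohesion until anaphase. SGO1 was called in the nucleus with DMSO, at 14.7, 14.9 and 16.1 CPM in controls and 6.77, 7.61 and 8.17 CPM in sgERH (log2 fold change -1.02, SE 0.17, adjusted p = 1.61e-04). The log2 fold change was -0.98 without control replicate 3, -0.95 without sgERH replicate 1 and -0.84 with an offset for transcript length, none of them called. SGO1 shares 15.8% of its exon bases with the antisense gene SGO1-AS1, whose mean count was 1.2. SGO2, the more abundant of the pair, counted 106, 102 and 85.3 CPM in control cytoplasm with DMSO and 57.3, 58.5 and 57.1 CPM in sgERH (-0.76, SE 0.07, adjusted p = 1.04e-07). Neither passed the adjusted p in the nucleus with CHX, each at -0.16 (adjusted p = 0.488 and 0.203).

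Among the spindle kinases and assembly factors, DLGAP5 had the largest decrease of the 47 genes in cytoplasm with DMSO and in the nucleus with DMSO. DLGAP5, or HURP, bundles the microtubules that run to kinetochores. In control cytoplasm with DMSO it counted 74.7, 71.4 and 58.9 CPM and in sgERH 20.9, 20.1 and 20.1 CPM (log2 fold change -1.75, SE 0.09, adjusted p = 1.70e-10). Its nuclear counts with DMSO were 94.6, 87.4 and 78.3 CPM against 19.2, 19.7 and 20.4 CPM (-2.13, SE 0.09, adjusted p = 8.26e-11). With CHX the cytoplasmic values were 88.9, 78.8 and 86.2 CPM against 36.7, 38.3 and 32.1 CPM (-1.25, SE 0.08, adjusted p = 7.69e-09). The lowest control library was above the highest sgERH library by a wide margin in each case. Nuclear counts with CHX were 45.7, 42.3 and 47.1 CPM against 18.8, 21 and 19 CPM (-1.20, SE 0.09, adjusted p = 2.25e-08).

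AURKA, the kinase that matures centrosomes, was called in cytoplasm with DMSO, at 155, 148 and 131 CPM in controls and 72.3, 74.6 and 68.3 CPM in sgERH (log2 fold change -1.01, SE 0.06, adjusted p = 1.64e-09). Without control replicates 1 or 2 or sgERH replicate 3 it was at -0.98 to -0.94 and not called, nor was it called with RLE size factors or DESeq2. TPX2, which activates AURKA on microtubules and is the most abundant of these genes, counted 355, 339 and 312 CPM against 189, 185 and 204 CPM (-0.80, SE 0.06, adjusted p = 6.56e-09). Its nuclear levels with CHX were 188, 188 and 181 CPM in controls and 234, 224 and 193 CPM in sgERH (0.22, SE 0.11, adjusted p = 0.100), higher in each sgERH library but not past the threshold.

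**Figure D2:**
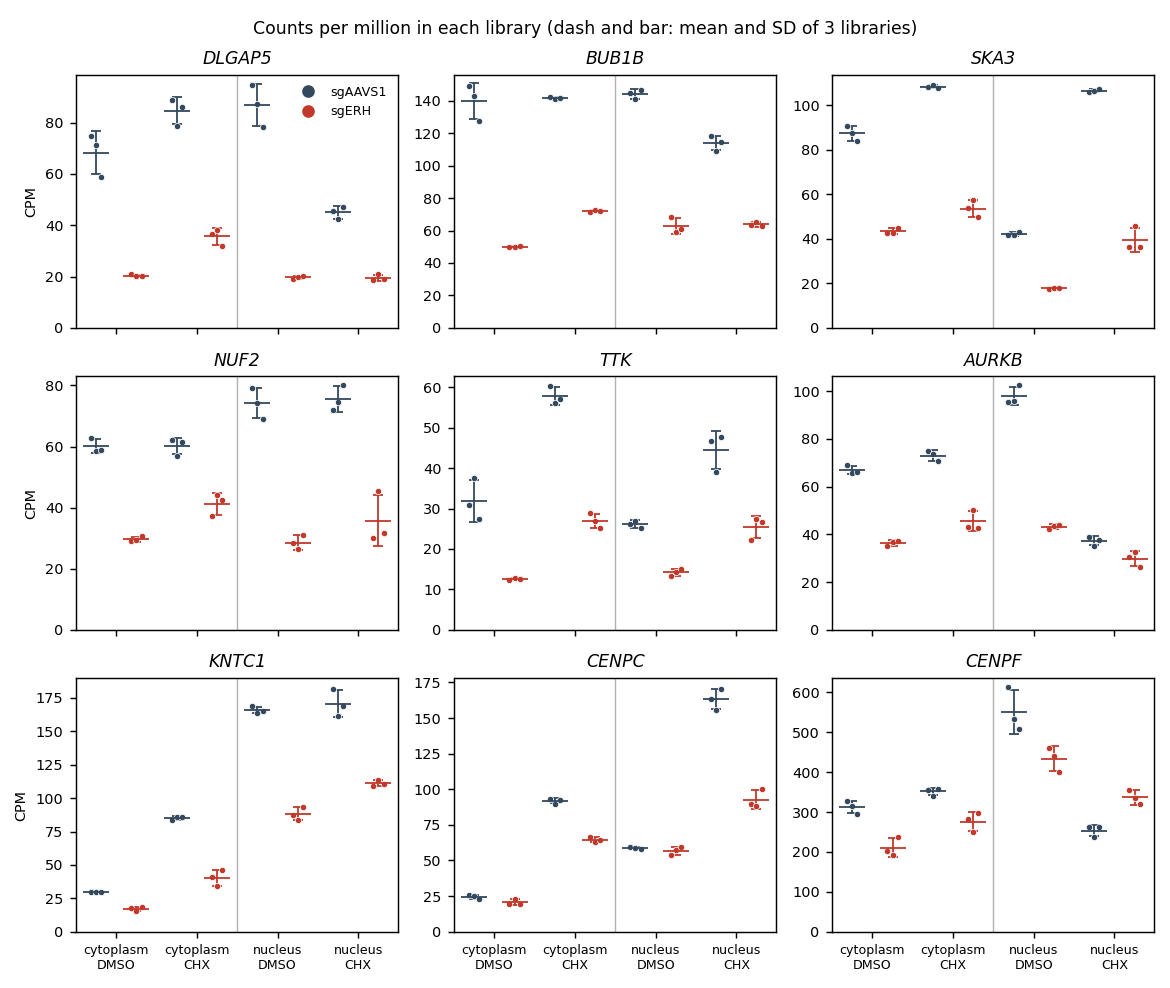
CPM of 9 genes in each library (points), with the mean (dash) and SD (bars) of 3 libraries, for sgAAVS1 (dark) and sgERH (red) in each fraction and treatment. DLGAP5, BUB1B, SKA3, NUF2, TTK and KNTC1 are lower in every sgERH library in all 4 settings, while nuclear CENPC separates with CHX and nuclear CENPF changes its order with CHX.

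The 4 genes called in both fractions with DMSO are shown by their promoters, from 250 bases before to 50 after the start that RefSeq gives on GRCh38.p14, because 2 short sequence elements recur upstream of late cell cycle genes. These are the cell cycle genes homology region (CHR), written TTTGAA or TTTAAA, bound by the DREAM and MuvB complexes, and the CCAAT box, bound by NF-Y. Capitals mark CHR and CCAAT matches on either strand, so that TTCAAA is TTTGAA on the other strand. The windows are chr15:40160819-40161118 on the plus strand for BUB1B, chr14:55191536-55191835 on the minus strand for DLGAP5, chr1:163321704-163322003 on the plus strand for NUF2 and chr13:21176503-21176802 on the minus strand for SKA3.
BUB1B promoter: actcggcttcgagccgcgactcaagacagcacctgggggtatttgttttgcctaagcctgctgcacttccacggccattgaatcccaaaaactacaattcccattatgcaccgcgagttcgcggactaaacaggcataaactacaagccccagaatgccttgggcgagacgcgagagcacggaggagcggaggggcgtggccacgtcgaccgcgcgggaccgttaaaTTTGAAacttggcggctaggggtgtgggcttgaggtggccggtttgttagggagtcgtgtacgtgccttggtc
DLGAP5 promoter: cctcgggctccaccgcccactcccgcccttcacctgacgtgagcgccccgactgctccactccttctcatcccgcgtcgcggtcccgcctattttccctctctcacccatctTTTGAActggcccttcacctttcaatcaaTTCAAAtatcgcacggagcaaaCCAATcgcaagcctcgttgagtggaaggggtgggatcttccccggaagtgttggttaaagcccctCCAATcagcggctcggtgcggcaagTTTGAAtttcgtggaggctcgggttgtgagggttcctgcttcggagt
NUF2 promoter: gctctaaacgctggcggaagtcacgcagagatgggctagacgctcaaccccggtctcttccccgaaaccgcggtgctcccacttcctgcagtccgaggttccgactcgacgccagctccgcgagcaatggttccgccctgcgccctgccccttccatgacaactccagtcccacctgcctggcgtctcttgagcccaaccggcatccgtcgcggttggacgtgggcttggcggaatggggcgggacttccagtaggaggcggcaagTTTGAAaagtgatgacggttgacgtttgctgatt
SKA3 promoter: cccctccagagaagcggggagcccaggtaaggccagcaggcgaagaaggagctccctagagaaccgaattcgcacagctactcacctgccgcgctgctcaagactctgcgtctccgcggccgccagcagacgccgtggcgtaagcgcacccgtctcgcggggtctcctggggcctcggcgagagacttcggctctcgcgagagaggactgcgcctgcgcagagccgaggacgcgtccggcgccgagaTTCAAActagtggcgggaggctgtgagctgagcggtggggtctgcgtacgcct
Each of the 4 windows held TTTGAA on one strand or the other. It began 23 bases before the annotated start in BUB1B (-23), at -3 in SKA3, 17 bases after it in NUF2 (17), and at -138, -109 and 4 in DLGAP5. DLGAP5 also held 2 CCAAT boxes, at -87 and -22, and the other three held none.

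A promoter was available for 37 of the 47 genes. TTTGAA was present in 20 of them (54.1%), against 15.4% of 27305 promoters of the same length, and TTTAAA in 4 (10.8% against 12.3%). CCAAT was present in 26 (70.3% against 35.7%), and 2 or more copies in 16 (43.2% against 11.3%). Both a CHR form and a CCAAT box stood in 15 windows (40.5% against 9.49%), among them CDC20, CDCA8, CENPF, INCENP, PLK1 and SPC25. E2F elements, searched on both strands as TTCGCGC, or else TTTGGCG, or the longer TTTCCCGC, were matched in 7 (18.9% against 5.66%). CENPI, CENPP, DSN1, MAD1L1 and NSL1 matched none of these. A match is a stretch of letters in a reference sequence and no measure of binding, and no match says only that the letters are not in this window.

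CHX itself moved these genes in control cells in both directions, as it did the genes tested at large. In cytoplasm 20 members passed the adjusted p in the higher direction (30.9% of all genes) and 13 in the lower (34.2%), and 4 were called higher, against 13.6% of all genes. CENPC rose from 25.8, 25.0 and 22.8 CPM to 93.4, 90.0 and 92.2 CPM (log2 fold change 1.90, SE 0.07, adjusted p = 6.24e-13). KNTC1 rose by 1.51 (SE 0.09, adjusted p = 1.58e-10), CENPL by 1.13 (SE 0.07, adjusted p = 5.97e-10) and MIS12, of the outer kinetochore, by 1.12 (SE 0.07, adjusted p = 2.99e-10). In the nucleus 17 members passed in the higher direction (29.4%) and 11 in the lower (29.2%). CENPC and SKA3 were called higher there, at 1.47 (SE 0.07, adjusted p = 1.78e-11) and 1.34 (SE 0.09, adjusted p = 4.77e-10), against 14.4% of all genes. AURKB and CENPF were called lower, at -1.40 (SE 0.09, adjusted p = 1.89e-10) and -1.12 (SE 0.08, adjusted p = 2.12e-09), against 10.8% of all genes. With an offset for transcript length 5 members were called higher in the nucleus. CENPC was the member called higher with CHX in both fractions.

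The effect of ERH loss was smaller with CHX than with DMSO for some of the members. In cytoplasm the difference of effects (CHX minus DMSO) passed the adjusted p in the higher direction for 15 members, against 14.8% of all genes, and in the lower direction for 1, MIS12 (-0.34, SE 0.09, adjusted p = 0.0158), against 11.1%. None reached 2-fold (0 called), and 26 had an unadjusted p under 0.05. PLK1, the polo-like kinase of spindle poles and kinetochores, had the smallest adjusted p, with a difference of 0.59 (SE 0.08, adjusted p = 6.64e-05). Its cytoplasmic counts with DMSO were 150, 136 and 125 CPM in controls and 82.8, 79.8 and 83.5 CPM in sgERH, and with CHX 101, 99.9 and 96.7 CPM and 90.0, 88.7 and 88.5 CPM. In PLK1 the groups came close together with CHX without overlapping. BUB1B followed, with a difference of 0.51 (SE 0.08, adjusted p = 1.48e-04), from -1.48 with DMSO to -0.98 with CHX.

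In the nucleus the difference of effects passed in the higher direction for 13 members, against 8.86% of all genes, and in the lower direction for CENPC (1 member, against 10.9%). With an offset for transcript length 6 passed in the higher direction. Again none reached 2-fold (0 called), and 20 had an unadjusted p under 0.05. DLGAP5 had a difference of 0.93 (SE 0.13, adjusted p = 7.67e-05), between -2.13 with DMSO and -1.20 with CHX. Its nuclear level in sgERH was about the same with both treatments (19.2 to 20.4 and 18.8 to 21 CPM), while its control level was 78.3 to 94.6 CPM with DMSO and 42.3 to 47.1 CPM with CHX. CENPC had a difference of -0.77 (SE 0.10, adjusted p = 8.40e-05), its decrease being seen with CHX. Other large differences, picked after their values were seen, were AURKB (0.86, SE 0.12, adjusted p = 1.08e-04), SGO1 (0.86, SE 0.24, adjusted p = 0.0173), PLK1 (0.85, SE 0.13, adjusted p = 3.02e-04) and CENPF (0.76, SE 0.12, adjusted p = 2.43e-04). In AURKB the nuclear counts were 39.0, 35.3 and 37.5 CPM in controls and 30.5, 32.5 and 26.4 CPM in sgERH with CHX, against 95.5 to 102 and 42.1 to 44 CPM with DMSO. The CHX change in controls and this difference of effects use the same control libraries, so both are set side by side only.

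**Figure D3:**
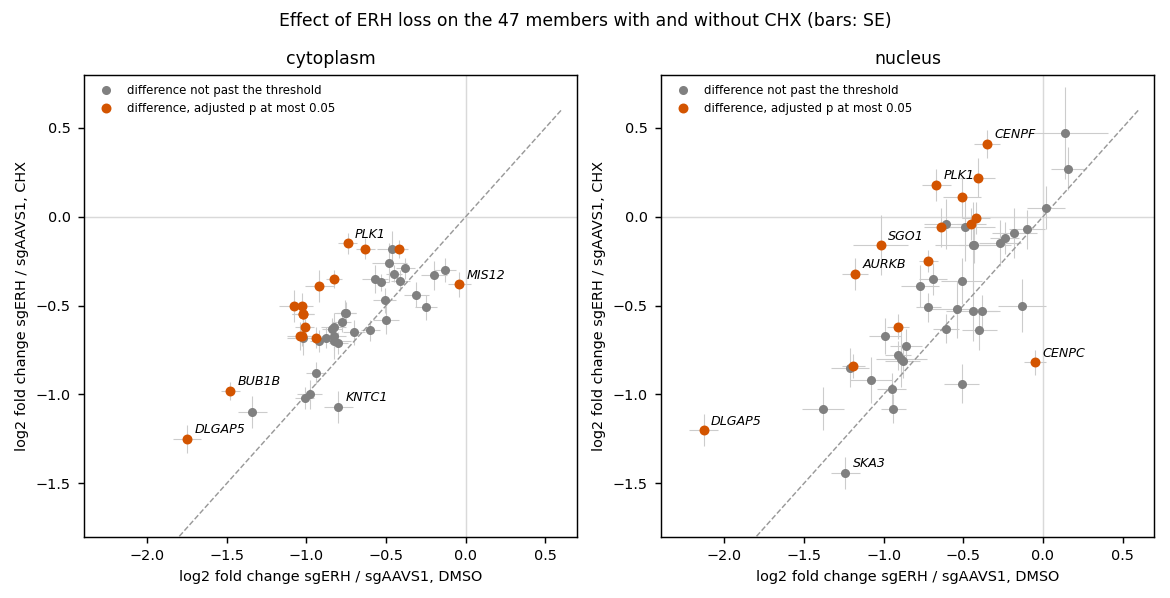
Log2 fold change of sgERH against sgAAVS1 with DMSO (horizontal) and with CHX (vertical) for the 47 genes in cytoplasm (left) and nucleus (right), with SE bars and the line of equal effects dashed. Orange points differ between treatments at an adjusted p of at most 0.05, and most of these lie above the line, with CENPC (nucleus) and MIS12 (cytoplasm) below it.

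In control cells with DMSO most of the 47 mRNAs were weighted to the cytoplasm. Relative to all genes of the same fraction, 22 members were called lower in the nucleus (26.5% of all genes) and 3 higher (31.9%), with a median log2 ratio of -0.88 (all genes 0.05). CENPW (-3.30, SE 0.16, adjusted p = 8.04e-13), SKA2 (-2.87, SE 0.09, adjusted p = 1.19e-15), SPC25 (-2.83, SE 0.17, adjusted p = 2.23e-11), CENPH (-2.71, SE 0.11, adjusted p = 4.36e-14), MAD2L1 (-2.65, SE 0.08, adjusted p = 9.51e-16) and BIRC5 (-2.46, SE 0.08, adjusted p = 4.38e-15) were the most cytoplasmic. KNTC1 (2.26, SE 0.07, adjusted p = 1.45e-15), CENPK (1.10, SE 0.08, adjusted p = 5.45e-10) and CENPC (1.05, SE 0.08, adjusted p = 4.10e-10) were weighted to the nucleus. These values compare shares within each fraction and not amounts per cell, as no spike-in is described.

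The effect of ERH loss with DMSO differed between the fractions for 22 members, 17 with a higher value in the nucleus (18.2% of all genes) and 5 with a lower one (14.5%), none by 2-fold (0 called). With an offset for transcript length 8 were higher in the nucleus, and without nuclear control replicate 1 3 were lower. Of all 47, 26 had an unadjusted p under 0.05. The fit across fractions, used here and for the control cells above, took all its libraries as independent. Equal replicate numbers in nucleus and cytoplasm probably come from the same lysed cells, although the sample titles do not state this. The column names carry the same running numbers in both fractions, and the study's methods separate nuclei and cytoplasm after lysis. With guide and replicate number as a block, 286 of all genes were called with a higher and 591 with a lower difference. Without the block these were 300 and 666. Deviations of same-numbered libraries of the 2 fractions correlated at 0.07 to 0.25 in sgERH and 0.03 to 0.17 in controls. INCENP had the smallest adjusted p, with a log2 fold change of -1.02 in cytoplasm and -0.42 in the nucleus and a difference of 0.62 (SE 0.10, adjusted p = 1.22e-04). ZW10, of the corona, was at -0.70 in cytoplasm and -0.10 in the nucleus (difference 0.62, SE 0.12, adjusted p = 5.30e-04). Its nuclear counts were 21.4, 22.7 and 20.3 CPM in controls and 19.9, 20.7 and 19.4 CPM in sgERH, which overlap. The 5 members with the larger decrease in the nucleus were SGO1 (-0.49, SE 0.13, adjusted p = 0.00703), DLGAP5 (-0.37, SE 0.13, adjusted p = 0.0320), NUF2 (-0.34, SE 0.10, adjusted p = 0.0157), AURKB (-0.28, SE 0.08, adjusted p = 0.0116) and BUB3 (-0.25, SE 0.07, adjusted p = 0.0117).

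The intron tables list 674 introns of the 47 genes. Retention was followed as the IR ratio, which sets the depth of reads over an intron against the total of this depth and the spliced reads at whichever end has more of them, and tested with edgeR's quasi-likelihood test on depth against exactly spliced reads. An intron was called at an adjusted p of at most 0.05, a change of at least 2-fold and, in the higher group, mean ratios reaching 0.05. In cytoplasm with DMSO 168 member introns were tested, of which 3 were called higher (1.08% of all introns) and 1 lower (0.306%). The median log2 change there was above 0, at 0.64 (all introns 0.49). With CHX 204 were tested, 2 called higher (0.643%) and 1 lower (0.311%), with a median of 0.17 (all introns 0.28). In the nucleus with DMSO 10 of 509 were called higher (1.46%) and 9 lower (3.3%), and the median log2 change was -0.43 (all introns -0.33). In the nucleus with CHX 4 of 525 were called higher (0.656%) and 56 lower (9.03%), with a median of -1.04 (all introns -0.90). These counts rest on few reads per intron. The 56 became 6, 7 and 5 without control replicates 1, 2 and 3, and 13 when reads across the exon boundaries replaced the depth. The 9 became 1 without control replicate 3 and 4 without sgERH replicate 1, and the 4 raised with CHX became 0 without control replicate 2 or 3. In cytoplasm the 3 raised with DMSO became 0 without sgERH replicate 2 and 1 or 2 without any other library. The members' introns moved with the introns of all genes, whose reads across either exon boundary per 100 spliced reads went from 50.9 ± 1.12 to 42.4 ± 0.0897 with DMSO and from 49.8 ± 0.699 to 34.6 ± 1.82 with CHX in the nucleus. The 56 lowered introns lay in 51 separate stretches, and 49 of them belong to the canonical transcript. In 1 of the 56 the IR ratio went the other way. PLK1 held 6 of the lowered introns, TPX2 5, and AURKB, INCENP and TTK 4 each.

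**Figure D4:**
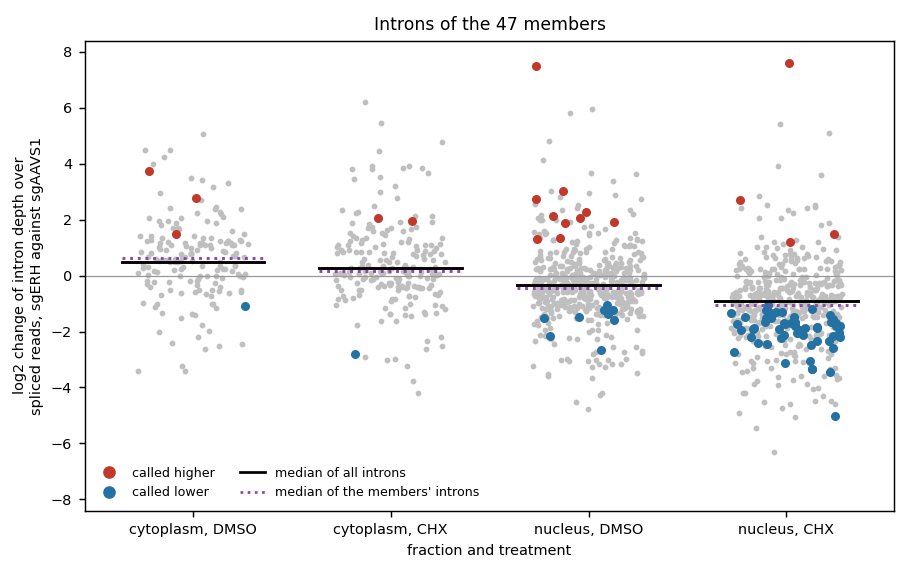
Log2 change of intron depth relative to spliced reads, sgERH against sgAAVS1, for each tested intron of the 47 genes (points) in the 4 settings, with called introns in red (higher) and blue (lower). The solid line is the median of all introns and the dotted line that of the members' introns. Both lines lie below 0 in the nucleus with CHX (-0.90 and -1.04), where 56 points are blue. The highest point in each nuclear column is TTK intron 2, whose control depth was 0, so that its height is no measure of size.

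Against the fall in the nucleus, single introns of checkpoint genes rose, while others of these genes fell there. CDC20 intron 9 fell with DMSO, from a mean ratio of 0.295 to 0.169 (log2 change -1.04, SE 0.17, adjusted p = 0.00729). With CHX, BUB1 intron 9 fell from 0.263 to 0.053 (-2.60, SE 0.44, adjusted p = 0.00646). BUB1 intron 10 (-1.51, SE 0.36), BUB3 intron 3 (-1.04, SE 0.29) and MAD2L1 intron 2 (-1.95, SE 0.43) were also called lower with CHX. BUB1B intron 20 of 22 (chr15:40213475-40217495, plus strand, 4021 bases) had IR ratios of 0.041, 0.034 and 0.043 in control nuclei with DMSO and 0.194, 0.186 and 0.235 in sgERH (log2 change 2.73, SE 0.26, adjusted p = 3.88e-04). With CHX the nuclear ratios were 0.103, 0.126 and 0.122 against 0.231, 0.171 and 0.239 (1.22, SE 0.35, adjusted p = 0.0431). The call with DMSO held in every fit tried, and the call with CHX was lost without any 1 control, without sgERH replicates 1 or 3 and with boundary reads. The groups did not overlap with either treatment, and the cytoplasmic ratios stayed at or below 0.020. BUB1B intron 19, its neighbour (chr15:40212649-40213331), had nuclear ratios of 0.051, 0.072 and 0.063 against 0.156, 0.193 and 0.207 with DMSO (1.93, SE 0.24, adjusted p = 0.00158).

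BUB1 intron 18 of 24 (chr2:110649378-110650545, minus strand, 1168 bases) was called in cytoplasm with both treatments. With DMSO its ratios were 0.009, 0.019 and 0.026 in controls and 0.13, 0.097 and 0.095 in sgERH (log2 change 2.79, SE 0.35, adjusted p = 0.00390), and with CHX 0.023, 0.013 and 0.020 against 0.071, 0.074 and 0.079 (2.07, SE 0.23, adjusted p = 0.00248). All sgERH libraries were above all controls. In the estimated split of BUB1 counts over transcripts, BUB1-207, annotated as a retained intron, took 14.1% of BUB1 counts in control cytoplasm with DMSO and 24.5% in sgERH, a description with no test. Which intron BUB1-207 keeps was not examined. BUB1 intron 21 (chr2:110641465-110641641) was called in the nucleus, at 0.007, 0.000 and 0.017 against 0.056, 0.054 and 0.051 with DMSO (3.02, SE 0.60, adjusted p = 0.0159) and at 0.051, 0.052 and 0.047 against 0.071, 0.088 and 0.122 with CHX (1.49, SE 0.33, adjusted p = 0.0178). The call of intron 18 with DMSO was lost without sgERH replicate 2, that of intron 21 with DMSO without control replicate 1 and that with CHX without any 1 control or with boundary reads. At a minimum mean IR ratio of 0.1 intron 18 with CHX and intron 21 with either treatment were not called. BUB1 intron 22, a 101-base intron that opens with GC in place of GT, had nuclear ratios of 0.056, 0.020 and 0.055 against 0.217, 0.121 and 0.142 with DMSO (2.14, SE 0.41, adjusted p = 0.0136).

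TTK held introns that went both ways in the nucleus. TTK intron 2 (chr6:80005983-80007808, plus strand) had a depth of 0 in all control nuclei, with 26, 49 and 42 spliced reads with DMSO. In sgERH the ratios were 0.103, 0.134 and 0.342, on 3, 4 and 5 spliced reads (adjusted p = 0.0198), and with CHX 0.167, 0.000 and 0.158 (adjusted p = 0.0328), and no fold is given against 0. The sgERH reads behind this call are few, and it was lost without control or sgERH replicates 2 or 3 (DMSO), without any 1 control or sgERH replicates 1 or 3 (CHX), and with DESeq2 or boundary reads for either treatment. TTK intron 15, 123 bases long, had ratios of 0.056, 0.000 and 0.010 against 0.085, 0.109 and 0.118 in the nucleus with CHX (log2 change 2.72, SE 0.72, adjusted p = 0.0340), a call lost without control replicates 2 or 3 or sgERH replicates 2 or 3. TTK intron 6 (chr6:80011549-80011728) went from 0.080, 0.112 and 0.107 to 0.021, 0.000 and 0.000 with CHX (-3.46, SE 0.85, adjusted p = 0.0267), and TTK intron 12 (chr6:80026515-80027884) from 0.061, 0.116 and 0.085 to 0.000, 0.000 and 0.031 (-3.35, SE 0.89, adjusted p = 0.0347). Neither of these decreases was called without any 1 control or with boundary reads, where they were -2.4 (intron 6) and -0.74 (intron 12). Intron 6 also lost its call without sgERH replicate 3, and intron 12 without sgERH replicates 1 or 2 and with DESeq2.

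CENPC intron 14 of 18 (chr4:67492998-67493883, minus strand) was called in both fractions with DMSO. Its cytoplasmic ratios were 0.003, 0.000 and 0.015 in controls and 0.044, 0.065 and 0.053 in sgERH (log2 change 3.73, SE 0.86, adjusted p = 0.0471), and its nuclear ratios 0.359, 0.299 and 0.219 against 0.436, 0.497 and 0.384 (1.33, SE 0.31, adjusted p = 0.0318). The cytoplasmic call was lost without any 1 sgERH library, without control replicates 1 or 2, with DESeq2 and with boundary reads (1.99). It was also lost at a minimum mean IR ratio of 0.1. The nuclear call was lost without any 1 sgERH library, without control replicates 2 or 3 and with boundary reads. SPDL1, the corona protein Spindly, had a pair of neighbouring introns called in the nucleus with DMSO. Intron 10 (chr5:169599160-169601279) went from 0.074, 0.055 and 0.040 to 0.166, 0.134 and 0.160 (2.28, SE 0.35, adjusted p = 0.00497, not called with boundary reads), and intron 9 (chr5:169598580-169598971) from 0.039, 0.032 and 0.031 to 0.104, 0.112 and 0.082 (2.07, SE 0.29, adjusted p = 0.00331). With CHX neither SPDL1 intron was called, with control ratios of 0.091 to 0.153 in intron 10. CENPK intron 8 had nuclear ratios of 0.026, 0.020 and 0.030 against 0.084, 0.045 and 0.071 with DMSO (1.87, SE 0.32, adjusted p = 0.00871).

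Of the other introns named by size, an intron of DSN1 outside the canonical transcript (chr20:36771194-36773661) had cytoplasmic ratios of 0.034, 0.029 and 0.042 in controls and 0.066, 0.054 and 0.062 in sgERH with CHX (log2 change 1.95, SE 0.42, adjusted p = 0.0458). CENPL intron 3 (chr1:173807519-173811131) fell in the nucleus with CHX, from 0.191, 0.144 and 0.185 to 0.017, 0.006 and 0.045 (-3.33, SE 0.98, adjusted p = 0.0480). CENPF intron 11 and AURKA intron 4 fell there too, from 0.072, 0.095 and 0.074 to 0.007, 0.000 and 0.013 (-3.11, SE 0.78, adjusted p = 0.0277) and from 0.069, 0.065 and 0.078 to 0.002, 0.001 and 0.026 (-3.07, SE 0.74, adjusted p = 0.0239). The largest fitted decrease was an NDC80 intron outside the canonical transcript (chr18:2610862-2614953, -5.01, SE 1.16, adjusted p = 0.0209), which rests on 1 exactly spliced read in the 3 controls and 34 in sgERH, with mean IR ratios of 0.233 and 0.182. These decreases in CENPL, CENPF, AURKA and NDC80 were not called without any 1 control, nor was the DSN1 intron without any 1 library or with DESeq2. With boundary reads CENPL was at -2.38, CENPF at -3.02 and AURKA at -2.26, again not called. Over all 4 comparisons 74 different introns of 34 members were called, 10 of them in the same direction in both nuclear comparisons and 0 in opposite directions. Most of the 10 were decreases: TTK intron 19, MIS12 intron 2, TPX2 introns 16 and 17, AURKB intron 5, INCENP intron 13 and CDCA8 intron 3. In AURKB intron 5 the mean ratio went from 0.781 to 0.590 with DMSO (log2 change -1.48, SE 0.17, adjusted p = 0.00102). BUB1 intron 21, BUB1B intron 20 and TTK intron 2 were the increases.

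**Figure D5:**
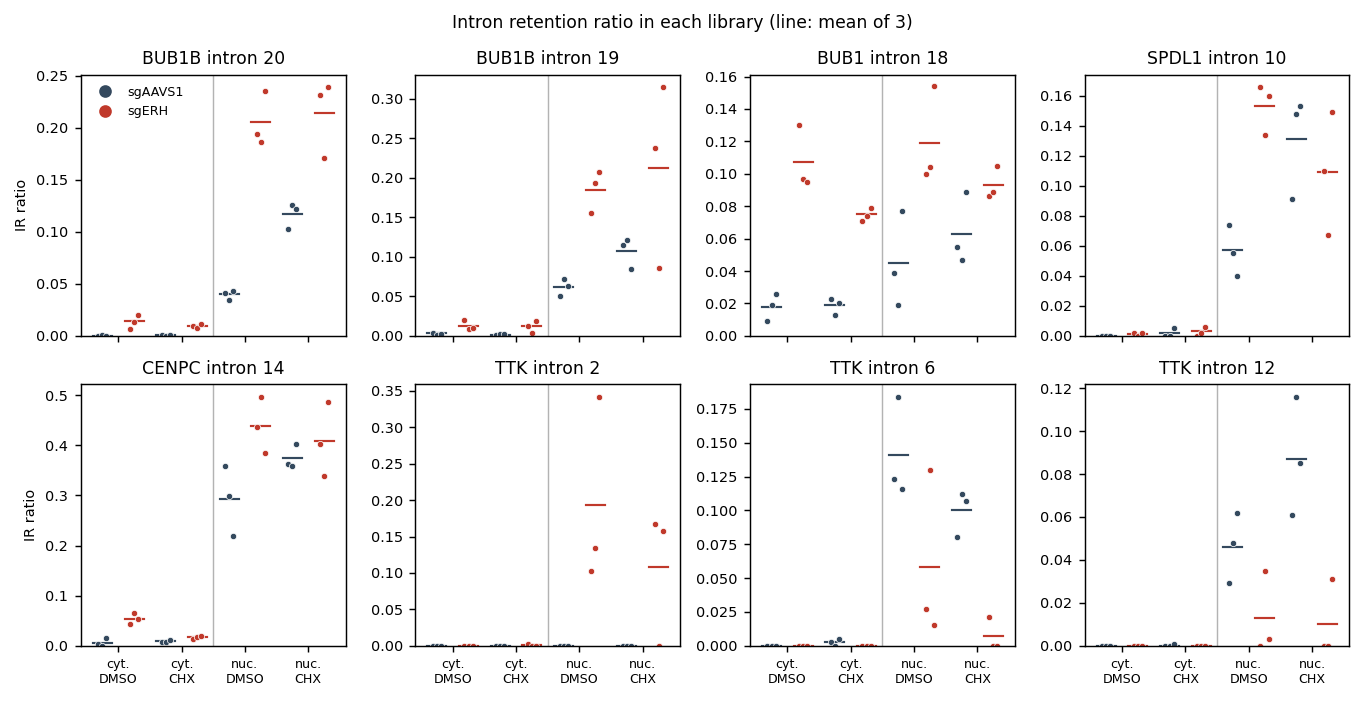
IR ratio (vertical axis, 0 to 1 scale cut to the data) of 8 introns in each library (points), with the mean of 3 libraries (line), for sgAAVS1 (dark) and sgERH (red). BUB1B introns 20 and 19 and SPDL1 intron 10 are higher in sgERH nuclei with DMSO, BUB1 intron 18 is higher in cytoplasm, and TTK introns 6 and 12 are lower in nuclei with CHX.

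The splice sites of the introns of canonical transcripts with the largest fitted changes are shown, 5 that rose and then 3 that fell, so that the letters at both ends can be compared. They were read from GRCh38, on the strand of the gene, as the last 6 exon bases and first 18 intron bases (5′ site) and the last 24 intron bases and first 3 exon bases (3′ site), with the first and last 2 bases of the intron in capitals.
TTK intron 2 5′ site: ctacagGTgagtttttcttttctt
TTK intron 2 3′ site: atatattttgttccccttatttAGata
CENPC intron 14 5′ site: catcagGTaaaacttatttatgtt
CENPC intron 14 3′ site: tttactttttttgttaaatttcAGgag
BUB1 intron 21 5′ site: ttattaGTaagtattcatttttat
BUB1 intron 21 3′ site: gattccactttccattgttcctAGaat
BUB1 intron 18 5′ site: ctccaaGTacgaacactcactctt
BUB1 intron 18 3′ site: ttttttttttctcattcctttaAGact
BUB1B intron 20 5′ site: aaacagGTtggtccttttcattct
BUB1B intron 20 3′ site: tccttctcttaaatctgggctcAGaat
TTK intron 6 5′ site: atatggGTaaggaaacggaaacag
TTK intron 6 3′ site: tgggggtattttctttctgtttAGaga
TTK intron 12 5′ site: gagctgGTaattactttggcccct
TTK intron 12 3′ site: taaaaatatatatatatttcctAGttt
CENPL intron 3 5′ site: ttgcagGTatgctttttgtgtccc
CENPL intron 3 3′ site: ttttgtcttgatttttttttatAGgaa
All 8 pairs open with GT and close with AG. The 18 bases before the closing AG held 15 pyrimidines in TTK intron 2, 14 in CENPC intron 14, 15 in BUB1 intron 21, 16 in BUB1 intron 18 and 12 in BUB1B intron 20, against 14 in TTK intron 6, 11 in TTK intron 12 and 14 in CENPL intron 3. The 10 member introns called higher in the nucleus with DMSO had a median length of 622 bases and a median GC content of 34.8%, and the 9 called lower 849 bases and 43.5%. All introns of these genes tested in that comparison had medians of 1523 bases and 40.1%, and all introns of the series tested there 1418 bases and 44.7%. These are descriptions of small sets, with no test.

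Other genes of the same processes went the same way in cytoplasm with DMSO, where 28.7% of all genes were lower past the adjusted p and 2.16% called lower. The median of each list was less negative than that of the 47. Of 10 other centromere genes and loaders of the centromeric histone CENP-A, 9 fell and 1 was called (HJURP, the CENP-A chaperone, -1.07, SE 0.06, adjusted p = 6.02e-10), with a median of -0.57. Of 22 genes of the anaphase-promoting complex, its regulators and separase, 17 fell and 2 were called, CDC27, a core subunit (-1.39, SE 0.05, adjusted p = 1.32e-11), and UBE2C, a ubiquitin-conjugating enzyme of the complex (-1.02, SE 0.08, adjusted p = 4.04e-08), with a median of -0.48. Among 24 other spindle assembly genes 21 fell and 1 rose, with 3 called lower (HAUS7, -1.39, SE 0.09, TACC3, -1.22, SE 0.06, and HMMR, -1.09, SE 0.09) and a median of -0.63. Among 18 cyclins, kinases and transcription factors of G2 and M phase 13 fell, 4 of them called (TOP2A, -1.31, MYBL2, -1.25, GTSE1, -1.17, and MKI67, -1.01), and the median was -0.73.

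The same 4 lists had, in the nucleus with DMSO, 6 of 10, 10 of 22, 17 of 24 and 12 of 18 genes lower past the adjusted p, against 18.2% of all genes, with medians of -0.37, -0.20, -0.55 and -0.59. CDC27 was called in cytoplasm with both treatments but its effect differed between the fractions by 1.40 (SE 0.07, adjusted p = 1.47e-09). HMMR, which binds microtubules at spindle poles, was called lower in all 4 comparisons, at -1.09, -1.19, -1.24 and -1.23. It was also raised by CHX in control cytoplasm by 3.6 on the log2 scale (SE 0.08, adjusted p = 1.94e-15).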

How the data were processed

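Polyadenylated RNA of 24 libraries (8 groups of 3) was sequenced. The deposited expected counts and TPM values are transcript estimates that the authors made with STAR and salmon within nf-core/rnaseq 3.13.2, after trimming with fastp and removal of rRNA reads, on GRCh38 with Ensembl 110 annotation. The deposited intron tables, made with IRFinder-S 2.0.0, hold counts of spliced and boundary reads, intron depth (a coverage signal) and the IR ratio, a fraction, with 1 table per library. These estimates can shift between isoforms that share exons, and intron depth rests on few reads where a gene is low. Depth was 27.8 to 79.5 M counts per library, and columns of samples that the labels do not give numbered 0.

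Here the expected counts were summed per gene, rounded, filtered with filterByExpr (minimum count 10), TMM-scaled and fitted with edgeR 4.0.16 (R 4.3.3) by the quasi-likelihood test. The 12 libraries of each fraction were fitted together, and the fractions were compared over the 12 DMSO libraries. Adjusted p-values cover all genes tested, and an SE was taken from the size of the log2 estimate over √F. Introns entered where the mean of depth plus spliced reads was at least 10 and the mean depth at least 1 in a group, and depth, rounded, was tested against exactly spliced reads by an interaction term. Each group was taken from the labels. DESeq2 1.42.0, RLE size factors, no filter, a transcript length offset, a replicate block and leaving out each library were tried as alternatives, and for introns also boundary reads, stricter minimums and a filter on warnings. The steps were tested on simulated data for genes in cytoplasm with DMSO and for introns in the nucleus with DMSO, and for no other comparison. The changed introns in that simulation were drawn from those with more depth, so it does not cover introns with few reads. In the comparison of guides in cytoplasm with DMSO all 3 same-numbered pairs deviated together (correlations of 0.16 to 0.27), a pairing seen in the data and not given by the labels, and the replicate block changed no call of a member there.

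The members and lists were chosen with earlier results of these data known. Per-library values are given for members called, for the most abundant member of each role and for members that moved against the majority. For CHX, fraction and difference comparisons, members called are named, else the 2 with the smallest adjusted p. Up to 4 called genes per other list, the up to 12 introns with the largest increase and the up to 6 with the largest decrease are named. Any further gene or intron was picked after its values were seen. Promoters came from RefSeq and splice sites from the GRCh38 genome.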

Additional observations from a re-analysis of the deposited data

Results flagged for a closer look

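Tested differences between the effects of ERH loss in 2 settings drew attention to 9 genes. In cytoplasm the log2 effect with CHX minus that with DMSO was 0.59 for PLK1 and 0.51 for BUB1B, both smaller decreases with CHX. In the nucleus the same difference was 0.93 for DLGAP5, 0.86 for AURKB, 0.86 for SGO1, 0.85 for PLK1, 0.76 for CENPF and -0.77 for CENPC. CENPC was the gene among these with the stronger decrease under CHX, and CENPF the one whose nuclear level was above the controls with CHX and below them with DMSO. Between the fractions with DMSO, the nuclear effect minus the cytoplasmic one was 0.62 for INCENP and 0.62 for ZW10, both lower in cytoplasm. Each difference passed an adjusted p of at most 0.05 over all genes in edgeR's quasi-likelihood test. The nuclear values above 0.75 were picked by size, after they were seen. With 3 libraries a group, single deviating libraries were not tested for.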

How the results depend on the processing

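Of the results on single genes, introns and medians, 0 reversed under any alternative, and of 1708 values recomputed 1555 kept their direction and side of the threshold, 139 fell short of it, 6 came to pass it and 8 moved. With an offset for transcript length, members called lower in cytoplasm with CHX went from 5 to 3, those called higher by CHX in the nucleus from 2 to 5, differences of effect between treatments from 1 to 0 (lower, cytoplasm) and from 13 to 6 (higher, nucleus), those between fractions from 17 to 8 (higher), and members called higher in the nucleus than in cytoplasm from 3 to 5. With RLE size factors, no filter on low counts or DESeq2 the 1 lower difference in cytoplasm became 2. Counting boundary reads in place of depth, the introns called higher and lower went from 3 and 1 to 1 and 0 (cytoplasm, DMSO), 2 and 1 to 1 and 0 (cytoplasm, CHX), 10 and 9 to 6 and 4 (nucleus, DMSO) and 4 and 56 to 1 and 13 (nucleus, CHX). DESeq2 gave 1 and 0 in cytoplasm with each treatment. A minimum mean IR ratio of 0.1 left 0 and 0 in cytoplasm with CHX, and leaving out introns with warnings left 0 lower in cytoplasm with DMSO. By definition, the minimum of 0.1 also ends the call of any named intron whose mean ratio in the higher group lay below it. The cause of these shifts was not tested.

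Leaving out 1 library at a time, members called lower ranged from 5 to 12 (cytoplasm, DMSO; 5 and 7 without control replicates 1 and 2) and 3 to 5 (cytoplasm, CHX; 3 without sgERH replicate 3), and those past the adjusted p from 44 to 45 and from 43 to 45. Lower differences of effect ranged from 1 to 2 between treatments in either fraction, and from 3 to 5 between fractions (3 without nuclear control replicate 1). Introns called higher and lower ranged from 0 to 2 and 0 to 1 (cytoplasm, DMSO), 1 and 0 to 1 (cytoplasm, CHX), and 0 to 5 and 5 to 46 (nucleus, CHX), where the lowest were 6, 7 and 5 without control replicates 1, 2 and 3. With DMSO 1 to 8 introns were called lower in the nucleus, with 1 without control replicate 3 and 4 without sgERH replicate 1.

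Outside the comparison of guides in cytoplasm with DMSO, not every same-numbered pair deviated together (a correlation over 0.1): 2 of 3 did in cytoplasm with CHX, where each library correlated best with its own number, 1 of 3 in the nucleus with DMSO and 2 of 3 with CHX, so the numbers were not taken to pair the samples there. With the replicate number as a block, called lower were 12, 4, 8 and 4 members in cytoplasm with DMSO and CHX and nucleus with DMSO and CHX, against 12, 5, 8 and 4, and the introns called lower in cytoplasm with CHX went from 1 to 0. The block ended the calls of CENPU (cytoplasm, CHX), TTK intron 2 (nucleus, DMSO) and the DSN1 intron (cytoplasm, CHX). It ended no other call of a gene named here or of an intron named by size. Depth limits the intron results, as the reads within single member introns are few in many libraries.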

Other observations

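The estimated split of counts over transcripts shows what kind of RNA the 47 genes gave in each fraction. Transcripts annotated as retained introns took 1.2 ± 0.0292% of the counts of these genes in control cytoplasm with DMSO and 1.87 ± 0.0365% in sgERH (mean ± SD, n = 3). Their nuclear share with DMSO was 11.1 ± 0.503% in controls and 10.0 ± 0.651% in sgERH. With CHX it was 10.6 ± 0.174% and 8.88 ± 0.368%. In cytoplasm with CHX the retained-intron share was 1.54 ± 0.140% in controls and 2.05 ± 0.372% in sgERH. Transcripts annotated as NMD targets took 7.16 ± 0.448% of the counts in control nuclei with CHX and 5.4 ± 0.296% in sgERH, against 3.79 ± 0.208% and 4.15 ± 0.505% with DMSO. In cytoplasm the NMD share was 4.49 ± 0.0588% in controls and 4.93 ± 0.502% in sgERH with CHX, against 3.63 ± 0.281% and 3.85 ± 0.181% with DMSO. These are sums over genes that differ in abundance, given as values with no test.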
